A study of Homo sapiens with 32 samples.

Results

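This account covers 10 genes of the IER, PHLDA and BTG families in LNCaP cells, out of 25498 gene symbols in the tables. The 10 are *IER2*, *IER3*, *IER5*, *IER5L*, *PHLDA1*, *PHLDA2*, *PHLDA3*, *BTG1*, *BTG2*, and *BTG3*, chosen by name from the symbol column, and all 10 passed the filter on low counts. LNCaP is an androgen-sensitive human prostate carcinoma line, and the same line supplied all 32 libraries. Cells were grown in FBS, or moved the day after plating to medium with 10% charcoal-stripped serum (CSS), which is depleted of androgens and other steroids. On the following day CSS cells were left without ligand, or received 100 ng/mL EGF or 100 ng/mL NRG-1 for 5 minutes, 1 hour, or 4 hours. Each of the 8 groups had 4 libraries, 2 in each of 2 batches. EGF is a ligand of EGFR, and NRG-1 is a ligand of HER3 and HER4, and these receptors signal together with HER2. The comparisons ask how these genes responded to each ligand over time, whether the ligands differed, and how the response relates to the serum.

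As background, immediate early genes are transcribed after receptor activation without new protein synthesis, largely through ERK signaling and transcription factors already present in the cell. IER2 encodes a nuclear protein that belongs to this class. IER3 encodes a regulator of cell survival that is a target of ERK and NF-kappaB signaling, and IER5 encodes a protein that links the phosphatase PP2A to the heat-shock factor HSF1, with IER5L as its paralog. The PHLDA proteins share a pleckstrin homology-like domain. PHLDA1 is known as a target of growth factor signaling, PHLDA2 is an imprinted gene that restrains placental growth, and PHLDA3 is a p53 target that competes with AKT for membrane lipid. BTG1, BTG2, and BTG3 belong to the antiproliferative BTG/TOB family, and BTG1 and BTG2 bring the CCR4-NOT deadenylase to mRNA. BTG2 is also a p53 target.

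RefSeq promoter sequences (GRCh38.p14) were at hand for 7 of the 10 genes. They were not at hand for *IER3*, *PHLDA2*, or *PHLDA3*. The 250 bases before the annotated start are shown for the 3 of these genes that rose most with the ligands (*IER2*, *IER5L*, and *PHLDA1*) and for *BTG2*, which fell, to show which motifs of factors known from growth factor signaling their letters hold. Each runs 5′ to 3′ on the strand of the gene. Capitals mark any match, on either strand, to the CArG box of SRF, the cAMP response element TGACGTCA, its half-site TGACG, the AP-1 site TGANTCA, the ETS site CCGGAAG, the EGR site GCGGGGGCG, or the CCAAT box. A match to the half-site also lies within any full element.
IER2 (chr19:13150161-13150410, + strand): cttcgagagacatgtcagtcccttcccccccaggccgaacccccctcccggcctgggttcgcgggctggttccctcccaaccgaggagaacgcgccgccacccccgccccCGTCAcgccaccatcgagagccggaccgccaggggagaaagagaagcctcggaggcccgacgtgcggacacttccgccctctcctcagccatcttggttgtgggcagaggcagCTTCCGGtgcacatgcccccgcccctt
IER5L (chr9:129178262-129178511, - strand): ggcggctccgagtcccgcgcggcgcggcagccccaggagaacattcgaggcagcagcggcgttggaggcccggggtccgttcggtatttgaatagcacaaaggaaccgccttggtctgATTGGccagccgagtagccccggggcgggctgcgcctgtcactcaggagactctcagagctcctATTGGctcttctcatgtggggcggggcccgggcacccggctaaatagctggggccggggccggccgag
PHLDA1 (chr12:76031777-76032026, - strand): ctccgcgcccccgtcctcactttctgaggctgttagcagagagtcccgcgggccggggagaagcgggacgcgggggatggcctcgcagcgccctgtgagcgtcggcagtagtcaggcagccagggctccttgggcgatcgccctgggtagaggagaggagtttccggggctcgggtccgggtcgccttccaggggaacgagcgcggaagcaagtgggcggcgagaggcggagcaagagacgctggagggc
BTG2 (chr1:203305269-203305518, + strand): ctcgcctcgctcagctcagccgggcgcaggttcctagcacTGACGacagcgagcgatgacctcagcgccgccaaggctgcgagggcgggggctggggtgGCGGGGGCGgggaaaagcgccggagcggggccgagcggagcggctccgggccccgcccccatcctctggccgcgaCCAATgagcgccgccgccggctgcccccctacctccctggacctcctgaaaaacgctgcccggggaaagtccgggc

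*IER2* held 1 reversed half-site and 1 reversed ETS site, the latter 27 to 21 bases before the start. *IER5L* held 2 reversed CCAAT boxes, and *PHLDA1* held none of the 7 motifs in this window. *BTG2* held a half-site, an EGR site 151 to 143 bases before the start, and a CCAAT box. Among the other genes with a sequence, *BTG1* held 2 reversed half-sites and a reversed CCAAT box, *BTG3* a reversed ETS site, and *IER5* 2 reversed CCAAT boxes. Of 34788 distinct windows of this length, 21.2% held the half-site, 8.50% the ETS site, 4.72% the EGR site, and 32.0% the CCAAT box. The CArG box, the full element, and the AP-1 site were in none of the 7 windows and in 1.17%, 1.64%, and 6.59% of all windows.

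Total counts lay between 63822654 and 92401724 per library (median 77866194). The lowest count of any of the 10 genes in any library was 49. The prostate luminal markers fixed for the cell line summed to 3835 to 6879 TPM (a relative level corrected for transcript length) per library. The fibroblast, endothelial, immune, and basal lists reached at most 5.96, 3.29, 19.1, and 2.20 TPM. Within the immune list the pan-leukocyte marker *PTPRC* was at most 0.04 TPM in any library. Within the fibroblast list *COL1A2* was at 0 in every library, while *COL1A1* was at 1.36 to 5 TPM. In bulk RNA, more transcripts per cell and more cells with the transcript cannot be told apart.

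Before stimulation the 10 genes spanned a wide range of levels. In CSS, mean TPM was 49.2 ± 5.67 (SD, n = 4) for *PHLDA3*, 46.5 ± 9.68 for *PHLDA2*, 44.2 ± 3.07 for *BTG1*, 43.1 ± 5.77 for *IER2*, 40.1 ± 1.20 for *BTG3*, and 31.9 ± 2.59 for *BTG2*. *IER5L*, *IER5*, and *IER3* were lower, at 5.33 ± 0.395, 5.20 ± 0.375, and 5.15 ± 0.356 TPM, and *PHLDA1* was lowest at 0.613 ± 0.316 TPM. From *PHLDA3* to *BTG3*, the SD ranges of neighbors in this order overlapped, as did those of *IER5L*, *IER5*, and *IER3*. After 4 hours of EGF the order had changed, with *PHLDA2* at 1344 ± 103 TPM and *IER2* at 114.8 ± 11.0 TPM at the top. Below, levels of a single gene across groups are given as CPM, the count relative to the TMM-scaled library total, which compares samples but not genes of different length. Values of 4 libraries are listed as replicates 1 and 2 of batch 1, then replicates 1 and 2 of batch 2.

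**Figure D1:**
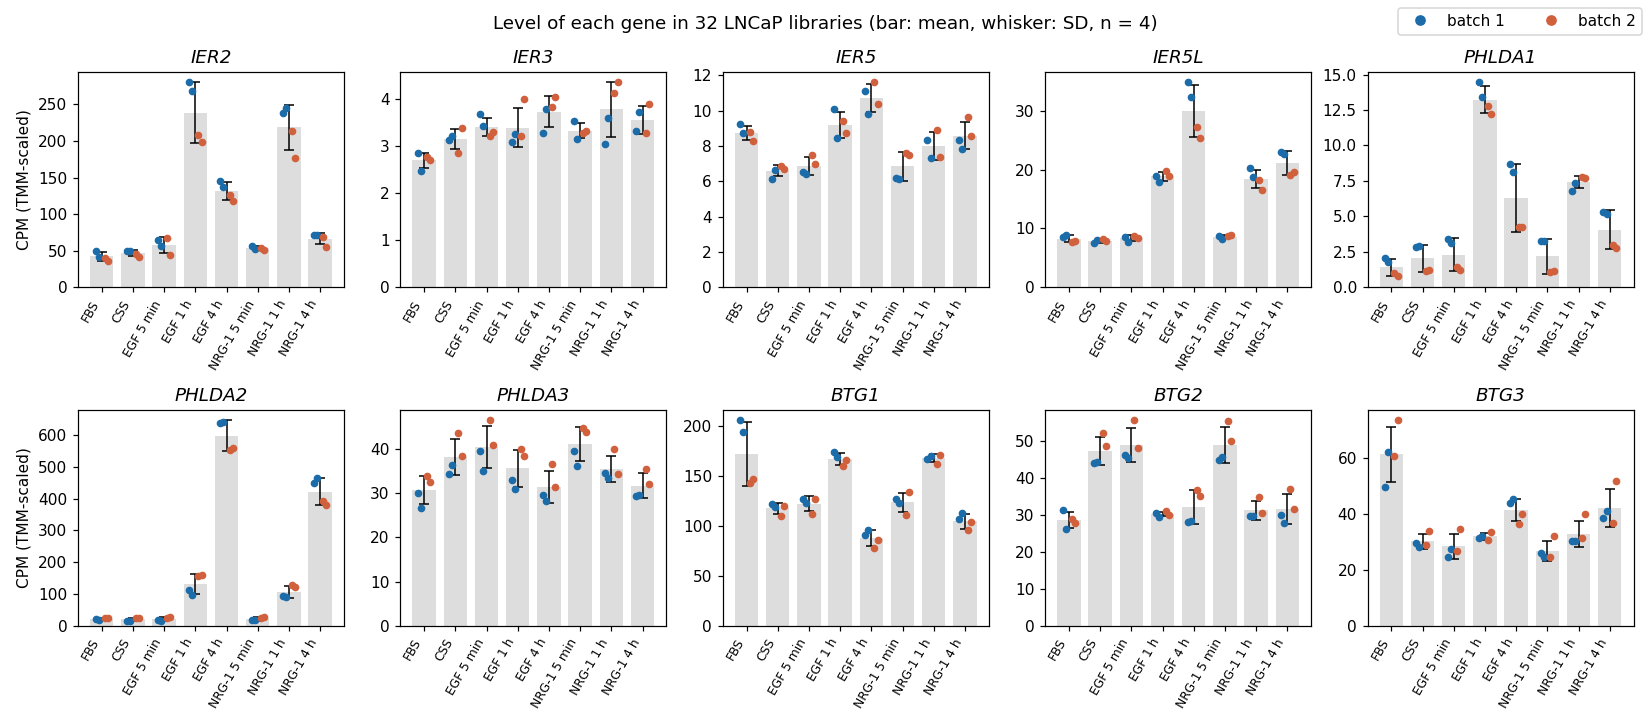
CPM (linear axis from 0) of the 10 genes in the 8 groups, with bars for the mean, whiskers for the SD (n = 4), and points for libraries, blue for batch 1 and red for batch 2. *PHLDA2* reached 552.3 to 641.0 CPM after 4 hours of EGF from 15.6 to 24.6 in CSS, *IER2* and *PHLDA1* were highest at 1 hour, and *BTG2* was lower in FBS and at 1 and 4 hours of either ligand than in CSS.

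Both ligands raised the same 6 of these genes at 1 hour and lowered 1. With EGF for 1 hour, *IER2*, *IER5*, *IER5L*, *PHLDA1*, *PHLDA2*, and *BTG1* rose and *BTG2* fell (adjusted p below 0.05 in the quasi-likelihood test of edgeR, Benjamini-Hochberg over 16995 genes). Of all genes tested, 6.00% rose and 3.51% fell. The rises of *IER2*, *IER5L*, *PHLDA1*, and *PHLDA2* also passed a log2 fold change of 1, as did those of 1.46% of all genes. NRG-1 for 1 hour raised the same 6 genes and lowered *BTG2*, against 4.45% and 2.28% of all genes. The same 4 genes passed the fold limit, which 0.806% of all genes passed upward. The median log2 fold change of the 10 was 0.49 with EGF and 0.40 with NRG-1, beside -0.01 and -0.00446 over all genes tested. Both ligand comparisons share the CSS libraries.

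At 4 hours the calls were divided by direction. EGF raised 7 of the 10 (*IER2*, *IER3*, *IER5*, *IER5L*, *PHLDA1*, *PHLDA2*, and *BTG3*) and lowered *PHLDA3*, *BTG1*, and *BTG2*, while 24.6% of all genes rose and 24.6% fell. NRG-1 raised 6 (the same without *IER3*) and lowered *PHLDA3* and *BTG2*, against 21.6% and 21.0% of all genes. Above the fold limit were *IER2*, *IER5L*, *PHLDA1*, and *PHLDA2* with EGF (5.86% of all genes) and the latter 3 with NRG-1 (4.87%). The medians of the 10 were 0.58 and 0.43, beside -0.02 and -0.01 over all genes. With NRG-1, *BTG1* had a log2 fold change of -0.17 (adjusted p = 0.0622) that became a call with the replicate block (adjusted p = 0.0251 in edgeR, range over 20 alternatives 0.0123 to 0.304).

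**Figure D2:**
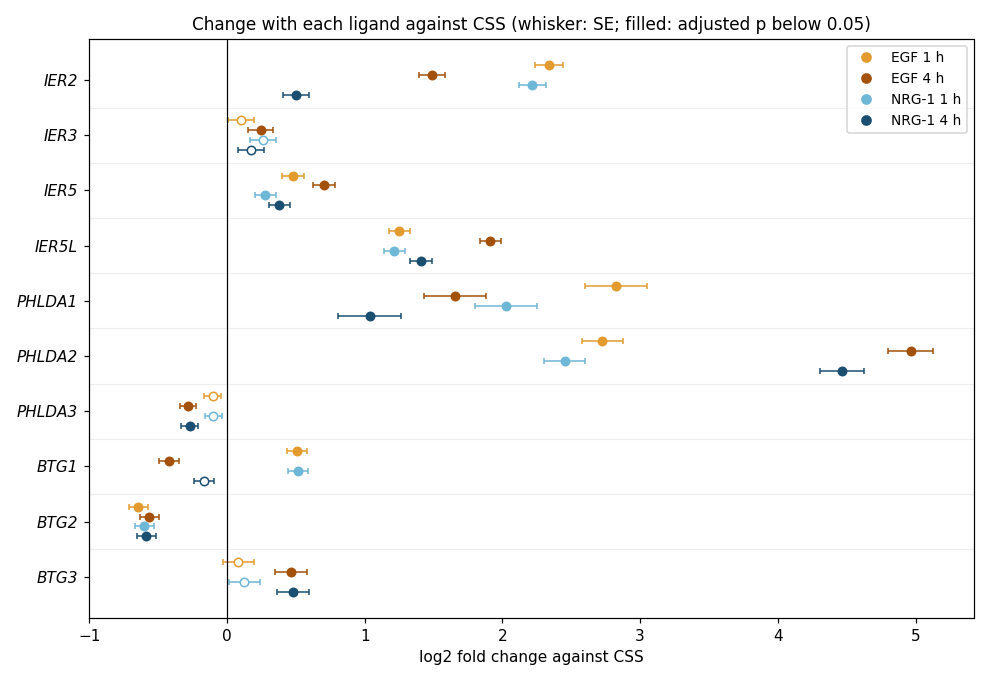
Log2 fold change against CSS (x axis) of each gene with EGF or NRG-1 for 1 or 4 hours, with whiskers of 1 SE and filled points for adjusted p below 0.05. *PHLDA2* moved from 2.72 at 1 hour to 4.97 at 4 hours of EGF (2.45 and 4.46 for NRG-1), *IER2* and *PHLDA1* were nearer to 0 at 4 hours than at 1 hour, and *BTG1* crossed from 0.51 at 1 hour to -0.42 at 4 hours of EGF.

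*PHLDA2* had the largest change of the 10. In CSS it had 16.1 and 15.6 CPM in batch 1 and 24.6 and 22.6 CPM in batch 2. With EGF for 1 hour it had 111, 95.3, 156.3, and 160.4 CPM, and at 4 hours 639.4, 641.0, 552.3, and 558.8 CPM. No library of these groups overlapped with another group of the 3. The rise was 6.61-fold at 1 hour (2.72 ± 0.149 SE on the log2 scale, edgeR adjusted p = 1.19e-14) and 31.2-fold at 4 hours (4.97 ± 0.164, adjusted p = 6.98e-20). NRG-1 gave 93.8, 89.2, 126.6, and 120.3 CPM at 1 hour and 450.6, 464.6, 391.3, and 378.7 CPM at 4 hours, which were 5.47-fold and 22.0-fold rises (adjusted p = 1.71e-13 and 7.36e-19 in edgeR). In every library these 2 groups were also above all CSS libraries.

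Ranked by TPM among 25498 rows, *PHLDA2* lay between places 2576 and 3866 in the CSS libraries, between 92 and 109 after 4 hours of EGF, and between 123 and 165 after 4 hours of NRG-1. Its gain in mean TPM over CSS was 1297 with EGF, the rank 2 gain of all rows, and 889.9 with NRG-1, at rank 4. In FBS it had 22.2 ± 3.12 CPM (SD, n = 4) against 19.7 ± 4.56 in CSS, and the difference did not pass (adjusted p = 0.296 in edgeR).

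*PHLDA1*, at the bottom of the range in CSS, rose at 1 hour of either ligand, at low levels. It had 2.87, 2.91, 1.16, and 1.21 CPM in CSS and 14.5, 13.4, 12.8, and 12.2 CPM after 1 hour of EGF. These groups did not overlap, and the rise was 7.09-fold (2.83 ± 0.225, adjusted p = 6.59e-11 in edgeR). At 4 hours of EGF it had 8.68, 8.12, 4.23, and 4.23 CPM, still above each CSS library (3.15-fold, adjusted p = 4.06e-07). With NRG-1 it had 6.82, 7.32, 7.78, and 7.69 CPM at 1 hour, a 4.07-fold rise in the fit (adjusted p = 1.00e-07) and 3.63 times the CSS mean. With NRG-1 for 4 hours it had 5.34, 5.16, 2.99, and 2.77 CPM, which overlapped with CSS because batch 1 lay above batch 2 in both groups. Within the fit with a batch term that difference passed (2.05-fold, adjusted p = 0.00046 in edgeR).

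*PHLDA3* moved the other way and by less. It had 34.3, 36.5, 43.8, and 38.4 CPM in CSS, 29.6, 28.2, 36.6, and 31.5 CPM after 4 hours of EGF, and 29.5, 29.6, 35.5, and 32.2 CPM after 4 hours of NRG-1. The groups overlapped between batches, but each library lay below the CSS library of the same batch and number. The log2 fold changes were -0.28 ± 0.0608 and -0.27 ± 0.0609, called lower at an adjusted p of 0.000288 and 0.000593 by edgeR. At 1 hour its log2 fold changes were -0.10 with either ligand and did not pass (95% intervals -0.22 to 0.01 and -0.22 to 0.02). In batch 2 alone the 4-hour falls were -0.25 and -0.26 and did not pass (adjusted p = 0.144 and 0.146, each the highest of its 20 alternatives, the lowest being 1.77e-06 and 4.97e-06).

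*IER2* was the most abundant IER gene and peaked at 1 hour. It had 49.6, 50.1, 46.1, and 41.8 CPM in CSS, and 280.2, 268.6, 207.7, and 198.6 CPM after 1 hour of EGF. The 1-hour libraries lay above all CSS libraries, with a 5.06-fold rise (2.34 ± 0.0988, adjusted p = 3.06e-17 in edgeR). At 4 hours of EGF the values were 145.2, 136.9, 126.3, and 118.1 CPM, between the other groups and without overlap (2.80-fold, adjusted p = 2.05e-13). NRG-1 for 1 hour gave 238.6, 245.6, 213.2, and 176.8 CPM, a 4.64-fold rise (adjusted p = 1.84e-16). By 4 hours of NRG-1 it had 71.0, 71.2, 68.3, and 55.7 CPM, 1.42-fold above CSS (0.50 ± 0.0949, adjusted p = 7.41e-05). These libraries were close to the FBS and CSS range, yet above it in all 4. In batch 2 alone that last change was 0.51 and did not pass (adjusted p = 0.0753, the highest of 20 alternatives, with 7.02e-07 the lowest).

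*IER5L*, the paralog of *IER5*, rose at 1 hour and stayed up. It had 7.48, 7.99, 8.24, and 7.94 CPM in CSS, 18.9, 17.8, 19.7, and 18.9 CPM after 1 hour of EGF, and 34.8, 32.4, 27.2, and 25.4 CPM after 4 hours. The 3 groups did not overlap, with rises of 2.38-fold and 3.77-fold over CSS (adjusted p = 2.46e-13 and 7.46e-18 in edgeR). NRG-1 gave 20.2, 18.8, 18.3, and 16.5 CPM at 1 hour and 23.0, 22.6, 19.1, and 19.6 CPM at 4 hours, which overlapped with each other but not with CSS (2.32-fold and 2.66-fold, adjusted p = 7.01e-13 and 9.33e-15).

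*IER5* rose less. It had 6.59 ± 0.312 CPM (SD, n = 4) in CSS, 9.18 ± 0.746 and 10.7 ± 0.801 after 1 and 4 hours of EGF, and 7.99 ± 0.788 and 8.59 ± 0.757 after 1 and 4 hours of NRG-1. All 4 ligand groups lay above the CSS libraries, by 1.40-fold and 1.63-fold with EGF (adjusted p = 3.81e-05 and 1.05e-08 in edgeR) and 1.21-fold and 1.30-fold with NRG-1 (adjusted p = 0.023 and 0.000211). The 1-hour NRG-1 call passed in 8 of 20 alternatives. It was lost without replicate 1 of batch 1 or 2 in NRG-1 (log2 fold changes 0.24 and 0.24), or without replicate 1 of batch 1, replicate 1 of batch 2, or replicate 2 of batch 2 in CSS (0.26, 0.28, and 0.27). The adjusted p ranged from 0.00457 to 0.696 over those alternatives.

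*IER3* was the least responsive IER gene. Its CSS libraries had 2.87 to 3.39 CPM, and no ligand group averaged above the 3.78 ± 0.581 CPM (SD, n = 4) of NRG-1 at 1 hour. The single call was with EGF for 4 hours (3.28, 3.80, 3.83, and 4.04 CPM against 3.15, 3.22, 2.87, and 3.39), where the groups overlapped (0.24 ± 0.0935, adjusted p = 0.0315 in edgeR). It passed in 10 of 20 alternatives (adjusted p from 0.0178 to 0.314). It was lost in each batch alone and without replicate 2 of batch 1, replicate 1 of batch 2, or replicate 2 of batch 2 of EGF (0.22, 0.24, and 0.22) or replicate 1 of batch 2 of CSS (0.19). At 1 hour of NRG-1 its log2 fold change of 0.26 did not pass (adjusted p = 0.101), but did with the replicate block (adjusted p = 0.0482) and without replicate 1 of batch 1 of NRG-1 (0.34, adjusted p = 0.0191), where 20 alternatives spanned 0.0191 to 0.836 in edgeR, DESeq2, and limma.

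The BTG genes differed in direction from each other. *BTG1* had 121.6, 118.5, 109.6, and 119.4 CPM in CSS, and 173.6, 168.4, 159.2, and 165.6 CPM after 1 hour of EGF, with no overlap (1.42-fold, adjusted p = 5.49e-06 in edgeR). NRG-1 for 1 hour gave 167.0, 169.2, 161.9, and 171.0 CPM (1.43-fold, adjusted p = 7.24e-06). After 4 hours of EGF *BTG1* had 90.8, 96.1, 78.1, and 85.7 CPM, below every CSS library (-0.42 ± 0.0723, adjusted p = 1.60e-05). It was thus above CSS at 1 hour and below it at 4 hours of the same ligand.

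*BTG2* was lower at both times with both ligands. It had 44.1, 44.5, 52.2, and 48.8 CPM in CSS, and 30.5, 29.6, 31.0, and 29.9 CPM after 1 hour of EGF. The 4 ligand groups at 1 and 4 hours all lay below CSS without overlap, with log2 fold changes of -0.64 and -0.56 for EGF and -0.60 and -0.59 for NRG-1 (adjusted p between 5.41e-08 and 3.17e-07 in edgeR). At 4 hours of EGF the libraries had 28.1, 28.4, 36.9, and 35.3 CPM, and the means at 1 and 4 hours were 30.3 ± 0.651 and 32.2 ± 4.56 (SD, n = 4).

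*BTG3* did not pass at 1 hour and rose at 4 hours. Its 1-hour log2 fold change was 0.08 for EGF (95% interval -0.14 to 0.31) and 0.13 for NRG-1 (-0.09 to 0.35). It had 29.6, 28.2, 28.9, and 33.9 CPM in CSS, 43.8, 45.4, 36.4, and 40.0 CPM after 4 hours of EGF, and 38.6, 41.0, 36.9, and 51.7 CPM after 4 hours of NRG-1. The 4-hour libraries lay above all CSS libraries (0.46 ± 0.113 and 0.48 ± 0.113, adjusted p = 0.00105 and 0.000958 by edgeR). Within batch 2 the changes were 0.31 and 0.51 and did not pass (adjusted p = 0.339 and 0.128, the highest of 20 alternatives each, the lowest being 5.38e-06 and 5.98e-06).

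The ligands were then compared with each other at the same time and dose. At 1 hour 1 of the 10 genes passed, *PHLDA1*, which was higher with EGF (0.80 ± 0.202, 1.74-fold, adjusted p = 0.0446 in edgeR); 0.941% of all genes were higher with EGF. Its 4 EGF libraries (12.2 to 14.5 CPM) lay above its 4 NRG-1 libraries (6.82 to 7.78 CPM). The call passed in 14 of 20 alternatives (adjusted p 2.42e-06 to 0.872). It was lost without the batch term, in batch 2 alone, and without either batch 1 library of NRG-1 (0.63 and 0.67) or either batch 2 library of EGF (0.67 and 0.70). For the other 9 genes the difference between the ligands at 1 hour did not pass. The 95% intervals were -0.06 to 0.31 for *IER2*, -0.11 to 0.18 for *IER5L*, 0.00143 to 0.54 for *PHLDA2*, -0.15 to 0.13 for *BTG1*, and -0.18 to 0.10 for *BTG2*.

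At 4 hours 3 of the 10 were higher with EGF than with NRG-1, beside 1.25% of all genes. *IER2* was higher by 0.98 ± 0.0951 (1.98-fold, adjusted p = 2.19e-07 in edgeR), *IER5L* by 0.50 ± 0.0746 (1.42-fold, adjusted p = 0.000148), and *IER5* by 0.32 ± 0.0769 (1.25-fold, adjusted p = 0.0235), and in each the 4 EGF libraries lay above the 4 NRG-1 libraries. With the replicate block *PHLDA2* was also called higher (0.50, adjusted p = 0.0241) and *BTG1* lower (-0.25, adjusted p = 0.0142) with EGF in edgeR. Without the block their adjusted p was 0.0596 and 0.075. The share of all genes called with the block was not computed. The 20 alternatives spanned 0.00156 to 0.423 for *PHLDA2* and 0.0142 to 0.891 for *BTG1*. *PHLDA2* did not overlap between the ligands and also passed without either batch 1 library of NRG-1 (0.60 and 0.62) or either batch 2 library of EGF (0.60 and 0.58).

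In batch 2 alone the 4-hour differences between the ligands were 0.99 for *IER2* and 0.45 for *IER5L* and did not pass (adjusted p = 0.129 and 0.103 by edgeR, the highest of 20 alternatives each, the lowest being 2.28e-20 and 2.22e-08). The *IER5* call passed in 9 of 20 alternatives (adjusted p 0.0028 to 0.891). It was lost without replicate 1 of either batch of EGF (0.29 and 0.30) or replicate 2 of either batch of NRG-1 (0.29 and 0.31). *BTG2* and *BTG3* had differences of 0.02 (95% interval -0.12 to 0.16) and -0.01 (-0.24 to 0.21).

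**Figure D3:**
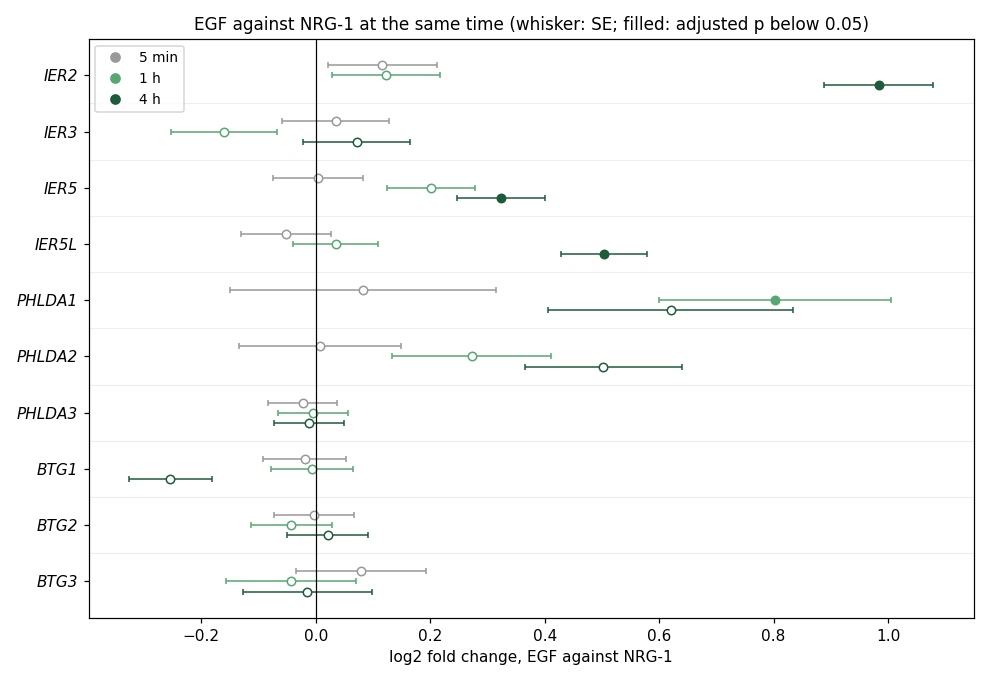
Log2 fold change of EGF against NRG-1 (x axis) at 5 minutes, 1 hour, and 4 hours for each gene, with whiskers of 1 SE and filled points for adjusted p below 0.05. The filled points are *PHLDA1* at 1 hour (0.80) and *IER2* (0.98), *IER5* (0.32), and *IER5L* (0.50) at 4 hours, all to the side of EGF.

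The change from 1 to 4 hours set the genes apart. With EGF, *IER5*, *IER5L*, *PHLDA2*, and *BTG3* were higher at 4 hours than at 1 hour and *IER2*, *PHLDA1*, *PHLDA3*, and *BTG1* were lower, against 22.5% and 21.5% of all genes. *PHLDA2* rose a further 4.73-fold (4.83% of all genes rose past the fold limit) and *PHLDA1* fell by 1.17 on the log2 scale (3.39% fell past it). With NRG-1, *IER5L*, *PHLDA2*, and *BTG3* were higher and *IER2*, *PHLDA1*, *PHLDA3*, and *BTG1* were lower at 4 hours, against 19.0% and 18.5% of all genes. *PHLDA2* rose 4.03-fold (4.52% past the limit) and *IER2* fell by 1.71 on the log2 scale (2.27% past it). *BTG2* did not pass between the times. Its log2 fold change from 1 to 4 hours was 0.08 for EGF (95% interval -0.06 to 0.22) and 0.02 for NRG-1 (-0.12 to 0.15).

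*BTG1* fell between 1 and 4 hours by 0.93 with EGF and by 0.68 with NRG-1 (adjusted p = 1.50e-11 and 9.22e-09 in edgeR), with no overlap of the libraries. The smaller calls depended on single libraries. The EGF difference of *IER5* (0.22) was lost without replicate 1 of batch 1 or 2 at 4 hours (0.19 and 0.20) or replicate 2 of batch 1 or 2 at 1 hour (0.20 and 0.18). That of *PHLDA3* (-0.18) was lost without replicate 2 of either batch at 4 hours (-0.16 and -0.16) or replicate 1 of batch 2 at 1 hour (-0.15). With NRG-1, *IER5L* (0.19) was lost without either batch 1 library at 4 hours (0.16 and 0.17) or any of 3 at 1 hour (replicate 2 of batch 1, 0.20, and replicates 1 and 2 of batch 2, 0.20 and 0.17). *PHLDA3* (-0.17) was lost without replicate 1 of batch 1 (-0.17) or replicate 2 of batch 2 (-0.15) at 4 hours, or any 1-hour library but replicate 2 of batch 2 (-0.15, -0.15, and -0.15), and *BTG3* (0.35) without replicate 1 of batch 2 at 1 hour (0.31) or replicate 2 of batch 2 at 4 hours (0.25).

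Whether the 1-to-4-hour change differed between the ligands was tested as an interaction. For 2 of the 10 genes it was larger (less negative or more positive) with EGF, beside 0.153% of all genes. *IER2* fell by 0.85 with EGF and fell by 1.71 with NRG-1, a difference of 0.86 ± 0.133 (adjusted p = 0.000478 in edgeR). *IER5L* rose by 0.66 with EGF and by 0.19 with NRG-1, a difference of 0.47 ± 0.106 (adjusted p = 0.0327). The *IER2* call passed in 24 of 28 alternatives (adjusted p 3.16e-07 to 1) and was lost in batch 2 alone and on log2 TPM in limma. That of *IER5L* passed in 13 of 28 (0.00365 to 1) and was lost without any of 9 single libraries, which were both batch 1 libraries of EGF at 1 and 4 hours and of NRG-1 at 1 hour, replicate 1 of batch 2 of NRG-1 at 1 hour, and both batch 2 libraries of NRG-1 at 4 hours (0.40 to 0.46). For *PHLDA2* the difference was 0.23 (95% interval -0.15 to 0.61), and for *PHLDA1* -0.18 (-0.76 to 0.39).

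At 5 minutes none of the 10 passed by edgeR with EGF (0.00588% of all genes were called), with NRG-1 (0%), or between the ligands (0%), and DESeq2 likewise called 0. At an unadjusted p under 0.05, 1 gene was found with each ligand and 0 between them, where 251 of the 16995 genes tested were found with EGF, 324 with NRG-1, and 184 between the ligands. That gene was *IER2*, at 65.1, 56.5, 67.3, and 44.0 CPM with EGF and 56.9, 52.8, 54.2, and 50.6 CPM with NRG-1. Its log2 fold changes were 0.31 ± 0.0948 and 0.20 ± 0.0948, with an adjusted p of 1 in edgeR for both. The EGF libraries overlapped with CSS and the NRG-1 libraries did not.

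FBS was compared with CSS, and 26.0% of all genes were higher and 26.8% lower in FBS. The CSS cells were also washed and given new medium, and the handling of the FBS cells is not described. An effect of the serum cannot be told apart from one of this handling. Of the 10 genes, *IER5*, *BTG1*, and *BTG3* were higher and *BTG2* and *PHLDA3* were lower in FBS. *BTG3* had 49.5, 62.0, 60.5, and 73.5 CPM in FBS, above all CSS libraries (2.03-fold, adjusted p = 1.39e-08 in edgeR), and alone of the 10 passed the fold limit, as 4.91% of all genes did upward. *BTG1* had 205.2, 193.4, 142.8, and 146.4 CPM in FBS (1.46-fold, adjusted p = 3.39e-07), with both batch 1 libraries above both batch 2 libraries. In batch 1 alone its log2 fold change was 0.73 and in batch 2 alone 0.34. *BTG2* had 31.4, 26.2, 29.0, and 27.8 CPM in FBS, below all CSS libraries (-0.72 ± 0.0707, adjusted p = 1.25e-09).

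*PHLDA3* was at 30.8 ± 3.15 CPM (SD, n = 4) in FBS against 38.3 ± 4.04 in CSS (-0.31, adjusted p = 8.78e-05 in edgeR), without overlap. In batch 2 alone it did not pass (-0.30, adjusted p = 0.0624, the highest of 20 alternatives, 3.30e-07 the lowest). *IER5* was 1.33-fold higher in FBS on counts (adjusted p = 6.05e-05), a call lost on log2(TPM + 1) in limma (0.18, adjusted p = 0.157; range over 20 alternatives 7.37e-07 to 0.254). *IER3* was lower by 0.22 without passing (adjusted p = 0.0532). It passed with the replicate block (adjusted p = 0.0427), and without replicate 1 of batch 1 of FBS (-0.26, adjusted p = 0.0343) or replicate 1 of batch 2 of CSS (-0.28, adjusted p = 0.0239), in a range of 0.00216 to 0.342. *IER2*, *IER5L*, *PHLDA1*, and *PHLDA2* did not pass, with 95% intervals of -0.33 to 0.04, -0.09 to 0.22, -0.96 to 0.01, and -0.10 to 0.46.

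The 2 batches gave different sizes of change for *PHLDA1* and *PHLDA2*. With the group in the model, *PHLDA1* was lower in batch 2 on average (log2 fold change -0.81, adjusted p = 8.16e-07 in edgeR). Its 1-hour levels in batches 1 and 2 were 14.0 and 12.5 CPM with EGF and 7.07 and 7.73 CPM with NRG-1. The EGF rise at 1 hour was 2.28 in batch 1 alone and 3.40 in batch 2 alone, and the NRG-1 rise 1.30 and 2.70. A batch-by-treatment term, added after the values were seen, gave a difference of 1.12 for EGF (adjusted p = 0.00141, 2 genes called of 16995) and 1.41 for NRG-1 (adjusted p = 4.17e-05, 1 gene called). *PHLDA2* rose by 5.33 and 4.58 in the batches with EGF for 4 hours and by 4.85 and 4.04 with NRG-1. Those differences were -0.78 (adjusted p = 0.00484, 24 genes called) and -0.82 (adjusted p = 0.00325, 15 genes called). Its CSS level was 15.8 CPM in batch 1 and 23.6 CPM in batch 2. In both batches every one of these rises passed, and what the batches differ in was not tested.

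**Figure D4:**
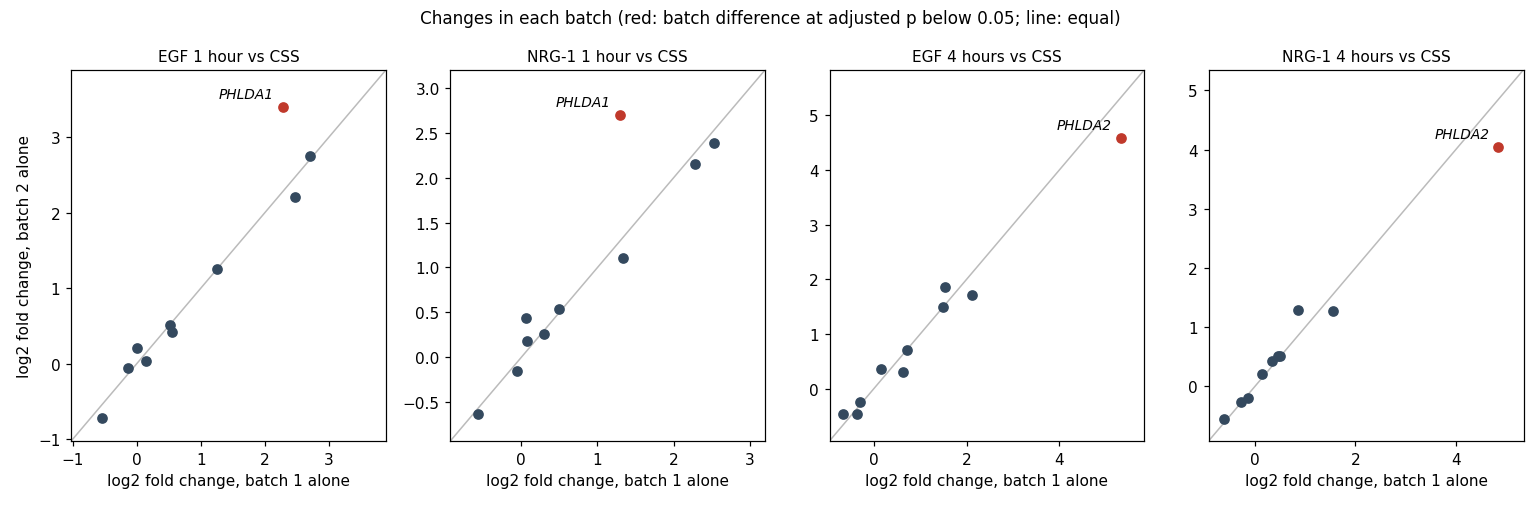
Log2 fold change of each of the 10 genes in batch 2 alone (y axis) against batch 1 alone (x axis) for the 4 ligand comparisons with CSS, with a gray line where both are equal. Red points differ between the batches at adjusted p below 0.05, and they are *PHLDA1* at 1 hour (1.30 and 2.70 with NRG-1) and *PHLDA2* at 4 hours (5.33 and 4.58 with EGF).

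The genes with the pattern most like each of the 10 were found by Pearson's r of log2 CPM, after removal of batch means, over the 32 libraries, which share the treatments (genes with a mean log2 CPM of at least 3). *IER2* was most like *ZFP36* (r = 0.990) and *CSRNP1* (0.985), *PHLDA1* like *DUSP10* (0.974) and *HBEGF* (0.961), *PHLDA2* like *SNAPC2* (0.991) and *KRT18* (0.988), and *IER5L* like *PIM2* (0.980) and *WDR1* (0.978). For *IER5* they were *POP1* (0.926) and *POLR1E* (0.903), for *BTG1* *WEE1* (0.924) and *RNF41* (0.923), for *BTG2* *ZNF490* (0.925) and *SOX4* (0.913), for *BTG3* *SNRPD1* and *PAK1IP1* (both 0.978), for *PHLDA3* *IRF2BPL* (0.954) and *PHF12* (0.936), and for *IER3* *MAPRE3* (0.785) and *RHBDD2* (0.764). Among the 10 themselves, r was 0.975 between *IER5L* and *PHLDA2*, 0.920 between *IER2* and *PHLDA1*, 0.821 between *BTG2* and *PHLDA3*, and -0.873 between *BTG3* and *PHLDA3*. These values describe the 32 libraries and are not tests.

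Among 36 other immediate early genes, all 36 rose with EGF at 1 hour (median log2 fold change 3.23, beside -0.01 over all genes, of which 6.00% rose) and 34 with NRG-1 (2.91; 4.45% of all genes). At 4 hours 24 rose and 4 fell with EGF (median 0.68; 24.6% and 24.6% of all genes), and 19 rose and 4 fell with NRG-1 (0.62; 21.6% and 21.0%). From 1 to 4 hours of EGF 34 of the 36 fell and 1 rose, where 21.5% of all genes fell and 22.5% rose. *IER2* and *PHLDA1* also fell, while *PHLDA2* and *IER5L* rose. The members with the largest change were *EGR4*, for which CSS libraries were at 0 CPM and EGF at 1 hour averaged 12.7 CPM, *EGR3* at 1 hour (0.126 to 502.2 CPM), and *EGR1* at 4 hours (1.26 to 563.2 CPM; adjusted p = 8.79e-16 in edgeR). EGR genes encode zinc finger transcription factors. *EGR4* was also called at 4 hours of EGF, at 0.240 CPM.

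Of 14 tested genes of the BTG/TOB family and CCR4-NOT complex other than these 10, 1 rose and 1 fell with EGF at 1 hour, and 1 rose and 3 fell at 4 hours (medians 0.00422 and 0.02). Of all genes 6.00% rose and 3.51% fell at 1 hour, and 24.6% rose and 24.6% fell at 4 hours. *TOB2* rose (0.45 ± 0.0841, adjusted p = 0.000297 in edgeR) and *TOB1* fell (-0.31 ± 0.0721, adjusted p = 0.00307) at 1 hour, and the deadenylase subunit *CNOT8* (-0.57) and the scaffold-associated subunit *CNOT2* (-0.33) fell at 4 hours. With NRG-1, 1 rose at 1 hour, and 2 rose and 5 fell at 4 hours, where 4.45% of all genes rose at 1 hour, and 21.6% rose and 21.0% fell at 4 hours. *BTG4* did not pass the filter, with at most 2 counts in a library.

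Of 24 other p53 target genes, 11 rose and 1 fell with EGF at 1 hour (median 0.14), and 5 rose and 13 fell at 4 hours (-0.25), beside 6.00% and 3.51%, then 24.6% and 24.6% of all genes. With NRG-1 these were 10 and 1, then 5 and 11, beside 4.45% and 2.28%, then 21.6% and 21.0%. *PLK2*, a polo-like kinase, rose by 1.99 ± 0.0873 and *GDF15*, a secreted stress cytokine, by 1.73 ± 0.0712 at 1 hour of EGF, while *BTG2* fell. At 4 hours of EGF *SESN1*, a stress-response gene of the sestrin family, fell by 2.15 and *PLK3* rose by 1.81 (adjusted p = 5.98e-15 and 8.70e-16 in edgeR). *BTG2* and *PHLDA3*, which are not in this list, were also lower at 4 hours.

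The list of HSF1 target chaperones, chosen for the link of *IER5* to HSF1, had 14 genes. With EGF 4 rose at 1 hour and 9 at 4 hours, with medians of 0.03 and 0.29, where 6.00% and 24.6% of all genes rose. With NRG-1 4 and 8 rose, where 4.45% and 21.6% of all genes did. *DNAJB1*, an HSP40 co-chaperone, rose 2.28-fold at 1 hour, and the small heat-shock protein gene *HSPB1* 1.98-fold at 1 hour and 2.02-fold at 4 hours of EGF (adjusted p = 3.47e-12, 2.50e-13, and 4.69e-14 in edgeR). *HSPH1* rose 1.68-fold at 4 hours.

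Of the 14 prostate luminal markers, 2 rose and 1 fell at 1 hour of EGF, and 5 rose and 8 fell at 4 hours. Their median log2 fold changes were -0.03 and -0.43. Of all genes 6.00% rose and 3.51% fell at 1 hour, and 24.6% rose and 24.6% fell at 4 hours. *KRT8*, a luminal keratin gene, was among those that rose, by log2 fold changes of 0.67 and 1.63 at 1 and 4 hours of EGF. At 4 hours of EGF *CD68*, also a lysosomal gene of many cell types, rose from 3.53 to 14.4 CPM, and *VWF* fell from 11.0 to 5.00 CPM. *CD4* rose from 0.367 CPM in CSS to 4.57 CPM at 1 hour and 3.98 CPM at 4 hours of EGF. *PDGFRA* went from 0 to 0.312 CPM at 4 hours, and *CD8A* from 0.0728 to 0.0124 CPM at 1 hour. Over all libraries *CD68* and *CD4* reached 16.2 and 3.55 TPM of the immune list.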

How the data were processed

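Poly(A) RNA of LNCaP cells was sequenced in 32 libraries from 8 groups of 4, with 63822654 to 92401724 counts each. Per the labels, the reads were trimmed with Trimmomatic 0.36 and aligned to hg19 with STAR 2.7.0f, and the authors deposited RSEM expected counts and TPM per gene symbol. TPM is corrected for transcript length and sums to a fixed total in each library.

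Expected counts were rounded (11.2% of all values and 0% of those of the 10 genes were not whole). The test covered the 16995 of 25498 genes that reached 5 counts in 3 or more libraries. The quasi-likelihood test of edgeR 4.0.16 (R 4.3.3) used TMM scaling and terms for group and batch over all libraries, with Benjamini-Hochberg adjustment and calls below 0.05. An SE is the absolute log2 fold change divided by the square root of F, and 95% intervals assume a normal error. The 10 genes and the other lists were chosen with earlier results of these data known. The lists are other immediate early genes, BTG/TOB and CCR4-NOT genes, other p53 targets, HSF1 target chaperones, and markers of prostate luminal, fibroblast, endothelial, immune, and basal cells. Named genes were each of the 10, the 2 called genes with the largest change in each list at 1 and at 4 hours of EGF, and the 2 most alike genes of each of the 10. A gene that this rule names among the markers is not reported here.

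Libraries with the same batch and replicate number share a batch by their labels. Their deviations from the group means correlated by 0.133 to 0.571 in all 112 pairs. Batch means were not removed, so these values cannot tell pairing by replicate number apart from the shared batch. Alternatives were DESeq2 1.42.0, its size factors, other filters, no batch term, a replicate block, the compared groups by themselves, either batch by itself, limma 3.58.1 on log2(TPM + 1) and log2(TPM + 0.1), and each library left out.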

Additional observations from a re-analysis of the deposited data

Results flagged for a closer look

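Among 80 sets of 4 libraries (10 genes in 8 groups, CPM), 2 held a library far from the other 3, where chance alone flags about 4 (1 in 20). *PHLDA3* was at 40.0 CPM in replicate 1 of batch 2 of NRG-1 at 1 hour, against 33.5 to 34.6 in the others. *BTG3* was at 39.9 CPM in replicate 2 of batch 2 of the same group, against 30.2 to 31.2.

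The ligands differed for *PHLDA1* at 1 hour (log2 fold change 0.80, EGF higher) and for *IER2* (0.98), *IER5* (0.32), and *IER5L* (0.50) at 4 hours. The change from 1 to 4 hours differed between the ligands by 0.86 for *IER2* and 0.47 for *IER5L*, in a test of the interaction.

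The batches differed in the rise of *PHLDA1* at 1 hour, by 1.12 with EGF and 1.41 with NRG-1 (larger in batch 2), and in that of *PHLDA2* at 4 hours, by -0.78 with EGF and -0.82 with NRG-1 (larger in batch 1). What differs between the batches was not tested.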

How the results depend on the processing

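No called change of the 10 genes reversed its sign under any alternative, whereas 28 changes called in neither setting did so in 125 comparisons. The count of the 10 genes called moved by over 1.5 times as follows. The share of all genes called was not computed for these alternatives. In batch 2 alone it was 5 (from 8) for NRG-1 at 4 hours against CSS, 0 (from 1) for EGF against NRG-1 at 1 hour, 0 (from 3) for the same at 4 hours, 5 (from 8) and 4 (from 7) for 4 against 1 hour of EGF and NRG-1, and 0 (from 2) for the interaction. EGF against NRG-1 at 4 hours gave 5 with the replicate block, with DESeq2, with at least 10 counts in every library, and in batch 1 alone. Without the batch term the counts were 0 for EGF against NRG-1 at 1 hour, 4 for 4 against 1 hour of NRG-1, and 1 for the interaction. The interaction gave 1 with only the groups compared and 0 in limma on log2(TPM + 1), with or without the filter, and on log2(TPM + 0.1). Leaving out each library in turn gave 0 to 1 genes for EGF against NRG-1 at 1 hour. It gave 4 to 7 for 4 against 1 hour of NRG-1, and 1 to 2 for the interaction. For EGF against NRG-1 at 4 hours it gave 2 to 4 (from 3), which is not over 1.5 times. The replicate block changed 5 calls of single genes in all, each to a call. A batch alone has 2 libraries per group. The SE of *PHLDA1* for EGF against NRG-1 at 4 hours was 0.214 over all groups and 0.0655 with only the groups compared, where its change (0.61) passed, as it did in batch 1 alone (0.68) (adjusted p = 0.00533 and 0.000357, in a range of 0.000357 to 0.888 over 20 alternatives in edgeR, DESeq2, and limma). The causes of these shifts were not tested.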
